A study of Mus musculus with 12 samples.

Results

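The 10 genes followed here mark the resident macrophages of the mouse peritoneum and were read from RNA sequencing of peritoneal macrophages. They were Gata6, Timd4, Icam2, Adgre1, Vsig4, Folr2, Alox15, Cd5l, Prg4 and Fn1. They were chosen by symbol from general knowledge of these cells, with earlier results of these data known. All 10 were found among the 16920 genes of each table and passed the filter on low counts. The cells came from mice on a C57BL/6 background, 6 to 10 weeks old, that were either wild type (WT) or labelled Ythdf1-/- (KO), a loss in the whole animal of a protein that binds the RNA mark N6-methyladenosine. Macrophages had been drawn into the peritoneum before harvest, by starch broth according to the series record and by thioglycollate according to the study's methods, and were kept in culture overnight. They then received PBS or lipopolysaccharide (LPS, 1 µg/mL) for 6 h, which gave 4 groups (WT PBS, WT LPS, KO PBS and KO LPS) of 3 libraries each, described as biological replicates. The study asked how the loss of Ythdf1 bears on the macrophage response to LPS. The present comparison asks how the resident identity genes stood in the same cells.

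Resident, or large, peritoneal macrophages are long-lived cells whose identity rests on the transcription factor Gata6, which is switched on in the cavity by retinoic acid. They carry high F4/80 (the product of Adgre1) and Icam2 on their surface, and receptors such as Timd4 and Vsig4 that serve the uptake of dying cells and of complement-coated particles. When an irritant such as broth is injected, blood monocytes enter the cavity and become small, monocyte-derived macrophages that lack much of this programme, so an elicited exudate mixes both kinds of cell.

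Each library held between 21546274 and 22017005 counts. Values are given as CPM, the counts of a gene relative to a library size scaled by TMM (a trimmed mean of log ratios between libraries). A floor of 3 counts corresponded to 0.105 to 0.187 CPM. The floor and the intervals named as counting intervals cover counting error only, whereas the other intervals come from the edgeR fit and hold the spread between libraries. RNA counted to the targeted gene was still present. Ythdf1 averaged 57.2 ± 1.53 CPM (SD, n = 3) in KO PBS libraries, above the 43.5 ± 1.54 CPM of the WT PBS libraries. Under LPS it averaged 198 ± 6.94 CPM in KO and 201 ± 9.37 CPM in WT libraries. Counts per gene do not show which exons the reads came from or whether protein was made. The paper shows genotyping of the knockout mice and a YTHDF1 immunoblot of chimeric mice. The genotype is given below as labelled. Replicate 1 of WT LPS stood apart, with a mean chi-square per gene of 33.5 and 26.2 against the other replicates of its group, which differed from each other by 3.08. Replicates 2 and 3 of KO LPS differed by 16.9, and pairs within the PBS groups by 2.77 to 4.72. General markers of macrophages were abundant, and 10 of them (Lyz2, Cd68, Itgam and others) summed to between 39580 and 47033 CPM per library.

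Promoter sequences are shown because 4 of the identity genes that were lower in KO-labelled than in WT libraries under PBS had an entry in the RefSeq promoter table of build GRCm38.p6 (Cd5l, Folr2, Timd4 and Vsig4). Each sequence is the 250 bases before an annotated start, written 5′ to 3′ on the strand of the gene, and Folr2 has 2 annotated starts. Capitals mark matches to 3 motifs, searched on both strands. The first, AGATAA, is bound by GATA factors such as the product of Gata6 and reads TTATCT on the other strand. The second, GAGGAA, holds the core GGAA of ETS factors in a form bound by PU.1, and appears as TTCCTC in reverse. The third, TGCTGA, is a half-site of MAF factors and appears as TCAGCA in reverse. Positions count back from the start, the base next to it being -1. Matches did not overlap each other.
Cd5l, chr3:87357631-87357880, plus strand: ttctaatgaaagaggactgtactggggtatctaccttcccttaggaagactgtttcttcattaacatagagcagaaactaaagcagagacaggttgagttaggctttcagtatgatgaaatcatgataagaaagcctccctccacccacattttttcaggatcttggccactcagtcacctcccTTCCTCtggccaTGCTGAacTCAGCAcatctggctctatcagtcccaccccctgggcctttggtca
Folr2, outer start, chr7:101857191-101857440, minus strand: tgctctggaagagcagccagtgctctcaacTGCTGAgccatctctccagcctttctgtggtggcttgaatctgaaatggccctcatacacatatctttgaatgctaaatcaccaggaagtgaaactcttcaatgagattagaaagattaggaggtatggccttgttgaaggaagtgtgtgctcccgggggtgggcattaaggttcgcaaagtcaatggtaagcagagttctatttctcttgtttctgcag
Folr2, inner start, chr7:101845332-101845581, minus strand: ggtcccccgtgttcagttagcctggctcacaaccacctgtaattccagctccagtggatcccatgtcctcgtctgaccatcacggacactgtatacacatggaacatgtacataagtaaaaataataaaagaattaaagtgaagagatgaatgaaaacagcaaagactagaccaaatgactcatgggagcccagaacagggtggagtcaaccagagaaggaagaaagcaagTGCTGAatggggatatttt
Timd4, chr11:46810549-46810798, plus strand: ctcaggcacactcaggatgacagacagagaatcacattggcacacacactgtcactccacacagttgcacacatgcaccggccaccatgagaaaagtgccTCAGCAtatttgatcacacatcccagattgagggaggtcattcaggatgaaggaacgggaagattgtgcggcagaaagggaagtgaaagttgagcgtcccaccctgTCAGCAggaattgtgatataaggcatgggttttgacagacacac
Vsig4, chrX:96293439-96293688, minus strand: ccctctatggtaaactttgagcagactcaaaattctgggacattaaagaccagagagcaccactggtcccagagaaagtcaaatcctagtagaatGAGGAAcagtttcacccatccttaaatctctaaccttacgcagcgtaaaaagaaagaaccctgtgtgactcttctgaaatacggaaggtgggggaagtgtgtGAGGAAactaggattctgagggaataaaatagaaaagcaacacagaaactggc

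The Cd5l window held an ETS match at -66 and MAF matches at -54 and -46. MAF matches lay at -220 and at -19 in the outer and inner windows of Folr2, and at -150 and -44 in that of Timd4. The Vsig4 window held ETS matches at -155 and -53 and no MAF match. None of the 5 windows held the letters AGATAA or TTATCT. Only these exact letters were searched, so near forms were not marked, such as TGATAA in the Cd5l window or GGAA alone in the Timd4 window. Whether a window lacks GATA or ETS sites therefore cannot be read from the marks. Of 32536 distinct windows of the same length, 9.97% held the GATA letters, 23.4% the ETS letters and 16.1% the MAF letters, and a match is a description of the letters, not a site.

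The members spanned a wide range of levels. Per kb of exon, Adgre1, the F4/80 antigen by which macrophages are recognised, was the most abundant in WT PBS libraries with 181 CPM per kb, above 98.7% of the 11886 tested genes with a known length. Fn1, which encodes the matrix protein fibronectin, followed with 81.2 CPM per kb, then Folr2, a folate receptor of tissue macrophages, with 43.1 CPM per kb, and Cd5l, a secreted protein of tissue macrophages that binds lipids and complement, with 23.5 CPM per kb. These 4 levels did not overlap between neighbours in the order in any library. Icam2, Vsig4 and Prg4 formed a middle group at 1.76, 1.67 and 1.55 CPM per kb, in which Icam2 and Vsig4 overlapped, as did Vsig4 and Prg4. Alox15 and Gata6 lay at 0.425 and 0.423 CPM per kb and overlapped, above 16.0% of genes each, and Timd4 was lowest at 0.193 CPM per kb, above 9.46% of genes. With the longest transcript in place of all exons as the length, Gata6 lay at 0.727 CPM per kb. Thus Gata6 and Timd4, among macrophages the markers most specific to the resident cell, were near the bottom of the range. Adgre1 and Fn1, which other macrophages express too, were near the top.

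**Figure D1:**
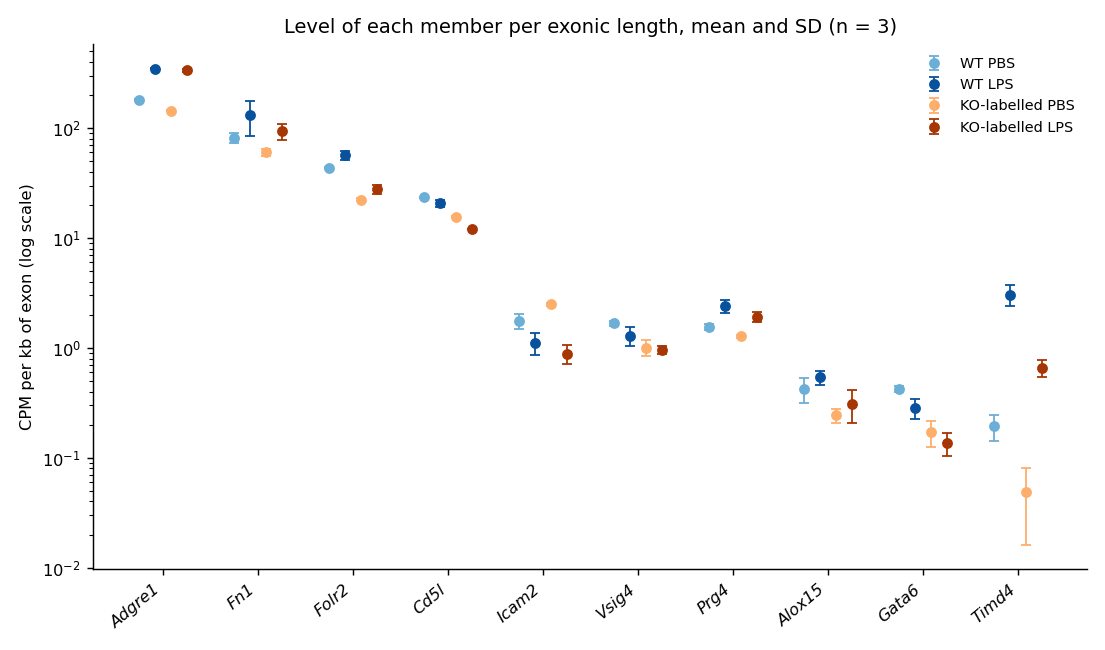
Level of each member in CPM per kb of exon (log scale) in the 4 groups, as mean and SD of 3 libraries, ordered by WT PBS. Adgre1, Fn1, Folr2 and Cd5l lay above 10 CPM per kb in all groups, and Timd4 moved from last place in the PBS groups to 3.06 CPM per kb in WT LPS.

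Every member except Icam2 had a lower mean in KO-labelled than in WT libraries under PBS, and all 10 had a lower mean under LPS. Under PBS, 7 members were called lower (13% of the 12064 genes tested were) and 1, Icam2, was called higher (12.3% were), so that 8 of 10 passed where 25.3% of all genes did. Of the 7, Timd4 passed the filter on low counts only through the LPS libraries. Under LPS, 6 members were called lower (19.3% of genes) and 0 higher (22.1% of genes), against 41.4% of genes called in either direction. The count of 0 is that of edgeR, and neither DESeq2 nor an unadjusted p under 0.05 gave a member that was higher. The median log2 fold change of the members was -0.66 under PBS and -0.63 under LPS, where the medians of all genes were 0.00036 and 0.00059. The members were chosen with earlier results of these data known, so these counts and medians describe them and do not test them as a set. In bulk RNA, fewer resident cells and less RNA per cell cannot be told apart.

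**Figure D2:**
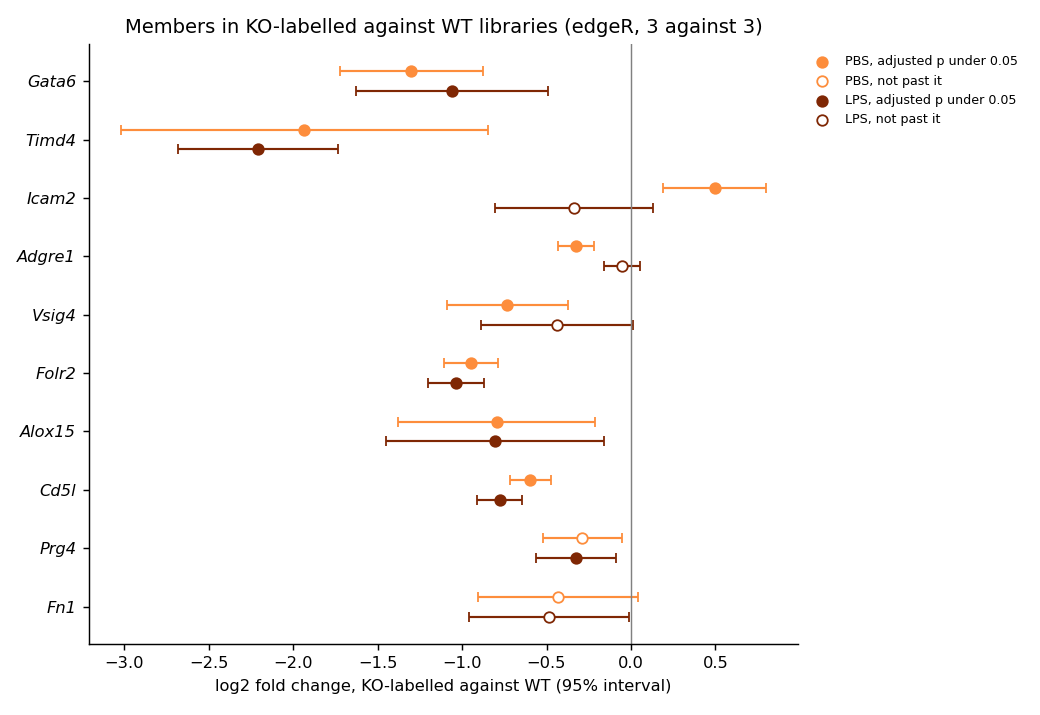
Log2 fold change of each member in KO-labelled against WT libraries under PBS and under LPS with 95% intervals (edgeR, 3 libraries against 3). Filled points passed an adjusted p of 0.05. Gata6, Timd4, Folr2, Alox15 and Cd5l lay left of zero with filled points under both treatments, and Icam2 under PBS was the only filled point to the right.

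Gata6, the lineage regulator (chromosome 18, from 11052510 to 11085636, plus strand, GRCm38.p6), read 2.60, 2.72 and 2.93 CPM in the WT PBS libraries and 1.02, 0.878 and 1.45 CPM in the KO PBS libraries. With LPS it read 1.62, 2.28 and 1.64 CPM in WT against 0.675, 1.10 and 0.871 CPM in KO. All KO-labelled libraries lay below all WT libraries of the same treatment, although no group held more than 230 counts of this gene in all. Gata6 was 2.46-fold lower by the KO label under PBS (log2 fold change -1.30, 95% interval -1.72 to -0.88, adjusted p = 0.000201) and 2.08-fold lower under LPS (-1.06, -1.63 to -0.49, adjusted p = 0.00469). Leaving out any 1 library kept both calls, with values from -1.51 to -1.13 and from -1.25 to -0.88.

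Among the surface receptors, Timd4 (chromosome 11, from 46810786 to 46844333, plus strand), a receptor for phosphatidylserine on apoptotic cells, was the scarcest member under PBS. It read 0.542, 0.322 and 0.393 CPM in WT PBS against 0.105, 0.0351 and 0.177 CPM in KO PBS, which came from 35 and 9 counts in all, and 2 of the KO PBS libraries were at or under the floor. The ratio of KO to WT by counts was 0.252 (95% counting interval 0.107 to 0.535). With LPS, the WT libraries rose to 5.03, 7.12 and 7.78 CPM and the KO libraries to 1.72, 1.35 and 1.24 CPM. The 2 genotype labels were again free of overlap, and Timd4 was 4.61-fold lower by the KO label under LPS (-2.21, -2.68 to -1.73, adjusted p = 1.50e-06). The call under PBS (-1.93, -3.02 to -0.85, adjusted p = 0.0115) was lost without WT PBS replicate 1 (-1.68, adjusted p = 0.0604) and without KO PBS replicate 2 (-1.51, adjusted p = 0.0611), whereas the call under LPS was kept without any 1 library. In a fit to the PBS libraries alone, Timd4 did not pass the filter on low counts and has no value. It was thus tested under PBS only because of its counts in the LPS libraries.

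Folr2 (chromosome 7, from 101839988 to 101857190, minus strand) did not overlap between the labels under either treatment. It read 65.7, 68.5 and 65.9 CPM in WT PBS against 35.2, 35.3 and 33.3 CPM in KO PBS, and 78.1, 92.6 and 92.5 CPM in WT LPS against 41.2, 47.4 and 39.9 CPM in KO LPS. The lowest WT library lay well above the highest KO library under both treatments. The difference was 1.93-fold under PBS (-0.95, -1.11 to -0.79, adjusted p = 2.79e-07) and 2.05-fold under LPS (-1.03, -1.20 to -0.87, adjusted p = 7.26e-08).

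Vsig4 (chromosome X, from 96247201 to 96293438, minus strand), the complement receptor of the immunoglobulin family, read 2.57, 2.36 and 2.50 CPM in WT PBS against 1.72, 1.23 and 1.52 CPM in KO PBS. It was 1.66-fold lower by the label under PBS (-0.73, -1.09 to -0.37, adjusted p = 0.00497). Under LPS the values were 1.85, 2.33 and 1.58 CPM in WT against 1.35, 1.35 and 1.55 CPM in KO, which did not overlap but did not pass (-0.44, -0.89 to 0.01, adjusted p = 0.114). Adgre1 (chromosome 17, from 57358581 to 57483529, plus strand), the most abundant member, read 601, 581 and 577 CPM in WT PBS against 469, 467 and 468 CPM in KO PBS. That difference of 1.25-fold passed (-0.33, -0.43 to -0.22, adjusted p = 0.000217). Under LPS, however, Adgre1 read 1134, 1104 and 1138 CPM in WT against 1096, 1036 and 1120 CPM in KO. Those groups overlapped, and the difference did not pass (-0.05, -0.16 to 0.05, adjusted p = 0.418) except with library totals (-0.14, adjusted p = 0.0253).

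Icam2 (chromosome 11, from 106377656 to 106388139, minus strand), an adhesion molecule carried by large but not small peritoneal macrophages, was the exception. It read 3.94, 2.93 and 3.18 CPM in WT PBS against 4.59, 4.88 and 4.71 CPM in KO PBS, so that the KO-labelled libraries were the higher ones and did not overlap with WT (0.50, 0.19 to 0.80, adjusted p = 0.0187). This call was lost without WT PBS replicate 2 (0.41, adjusted p = 0.0886), WT PBS replicate 3 (0.46, adjusted p = 0.0709) or KO PBS replicate 2 (0.50, adjusted p = 0.0502). Under LPS, Icam2 read 1.91, 2.68 and 1.81 CPM in WT against 1.90, 1.84 and 1.31 CPM in KO, with overlap (-0.34, -0.81 to 0.13, adjusted p = 0.237).

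Of the enzyme and the secreted proteins, Cd5l (chromosome 3, from 87357881 to 87371074, plus strand) differed most clearly. Its libraries read 48.0, 48.2 and 47.4 CPM in WT PBS against 31.3, 31.4 and 32.3 CPM in KO PBS, then 40.1, 41 and 45.4 CPM in WT LPS against 24.8, 24.7 and 24.4 CPM in KO LPS. The replicates of a group lay close together and the labels far apart. The difference was 1.51-fold under PBS (-0.60, -0.72 to -0.47, adjusted p = 2.24e-06) and 1.71-fold under LPS (-0.78, -0.91 to -0.64, adjusted p = 1.57e-07).

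Alox15 (chromosome 11, from 70344147 to 70390538, minus strand), the 12/15-lipoxygenase that oxidises membrane lipids in resident macrophages, was near 1 CPM. It read 1.27, 1.11 and 0.751 CPM in WT PBS against 0.700, 0.527 and 0.567 CPM in KO PBS. Under LPS the values were 1.33, 1.14 and 1.52 CPM in WT against 1.04, 0.551 and 0.684 CPM in KO. Neither pair of groups overlapped, and both differences passed narrowly (-0.79, -1.38 to -0.21, adjusted p = 0.0442 under PBS and -0.80, -1.45 to -0.16, adjusted p = 0.0441 under LPS). Each was lost in 10 of 19 alternatives, which left the value between -0.98 and -0.60 under PBS and between -1.10 and -0.62 under LPS. In 5 libraries the count of Alox15 was fractional, and where the fractional part came from was not tested.

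Prg4 (chromosome 1, from 150449412 to 150466221, minus strand) encodes lubricin, a lubricating glycoprotein also made by synovial and mesothelial cells. It read 7.16, 6.30 and 6.47 CPM in WT PBS against 5.60, 5.34 and 5.38 CPM in KO PBS, and 11.7, 8.94 and 10.2 CPM in WT LPS against 9.08, 7.96 and 7.59 CPM in KO LPS. The groups were free of overlap under PBS, where the difference did not pass (-0.29, -0.52 to -0.06, adjusted p = 0.0662), and overlapped under LPS, where it did (-0.33, -0.56 to -0.09, adjusted p = 0.0284). The latter call was lost on leaving out replicate 1 (-0.22) or 3 (-0.33) of WT LPS, or replicate 2 (-0.30) or 3 (-0.27) of KO LPS, and in a fit to the LPS libraries alone (-0.34, adjusted p = 0.0665). Counts of Prg4 were fractional in all 12 libraries. Under PBS the difference passed without WT LPS replicate 1 (-0.29, adjusted p = 0.0353) or WT LPS replicate 2 (-0.29, adjusted p = 0.0459), with upper-quartile scaling (-0.31, adjusted p = 0.0451), in a fit to the PBS libraries alone (-0.29, adjusted p = 0.0269) and with the replicate number as a block (-0.29, adjusted p = 0.0425).

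Fn1 (chromosome 1, from 71585473 to 71653280, minus strand), which fibroblasts also make, varied most between replicates among the abundant members. It read 1048, 854 and 946 CPM in WT PBS against 671, 683 and 757 CPM in KO PBS. In WT LPS it read 2119, 1118 and 1339 CPM, with replicate 1 far above the others, and in KO LPS 1064, 927 and 1277 CPM. No difference by genotype label passed (-0.43, -0.90 to 0.04, adjusted p = 0.172 under PBS and -0.49, -0.96 to -0.01, adjusted p = 0.0944 under LPS). Without WT LPS replicate 1 the value under LPS was -0.17, and the one under PBS passed (-0.43, adjusted p = 0.0323), as it did in a fit to the PBS libraries alone (-0.43, adjusted p = 0.0139). Without WT LPS replicate 2 the one under LPS passed (-0.67, adjusted p = 0.0185), as it did with upper-quartile scaling (-0.55), library totals (-0.57) or a minimum of 10 counts in every library (-0.50, adjusted p = 0.0390). The WT and KO-labelled libraries did not overlap for 9 members under PBS, with WT above KO, where 24.6% of all genes showed that order, and for 6 members under LPS, where 21.4% did.

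**Figure D3:**
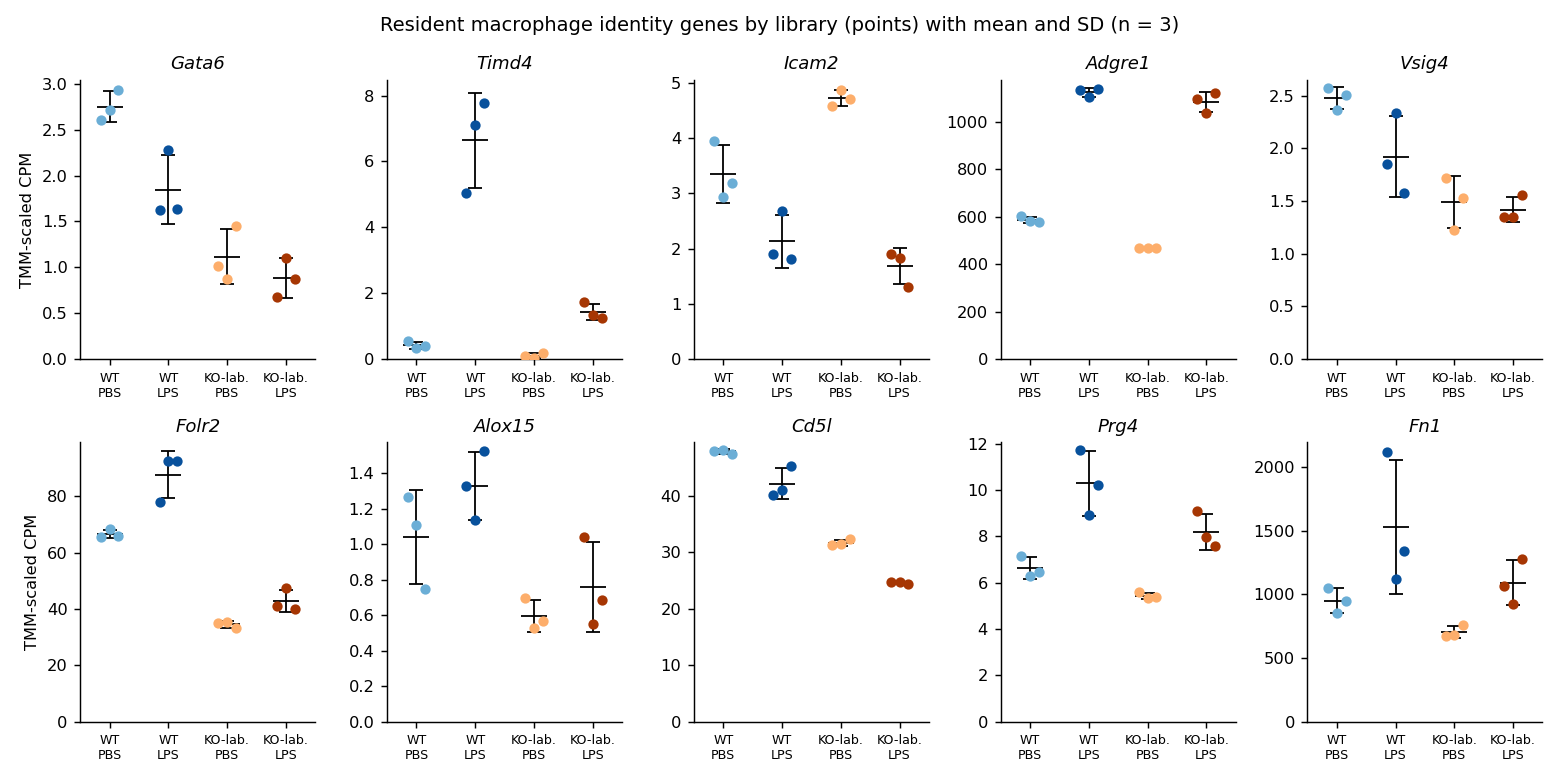
TMM-scaled CPM of the 10 members in each of the 12 libraries (points), with the mean and SD of each group. Folr2 and Cd5l separated by genotype label under both treatments, Timd4 rose to between 5.03 and 7.78 CPM in WT LPS, and the 3 KO PBS values of Icam2 lay above those of every other group.

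LPS moved the members in opposite directions. With TMM scaling, 5 members were called higher with LPS in WT libraries (36.5% of all genes were) and 3 lower (40.2% were), which made 8 of 10 where 76.7% of genes passed. In KO-labelled libraries 5 were called higher (38.8% of genes) and 2 lower (41.1% of genes), 7 in all where 79.9% of genes passed. The shares of members called were thus near those of all genes. The direction of several of these changes depended on the scaling, because LPS libraries received TMM factors of 0.744 to 0.808 and PBS libraries factors of 1.26 to 1.31. Scaling by library totals alone moved the median of all genes from -0.05 to -0.71 in WT and from -0.04 to -0.84 in KO-labelled libraries, and upper-quartile scaling moved it to -0.36 and -0.40. RLE scaling, by the median ratio to a reference library, kept the direction and the call of each member with LPS that TMM gave, and the 3 scalings set side by side below are TMM, upper quartile and library totals.

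**Figure D4:**
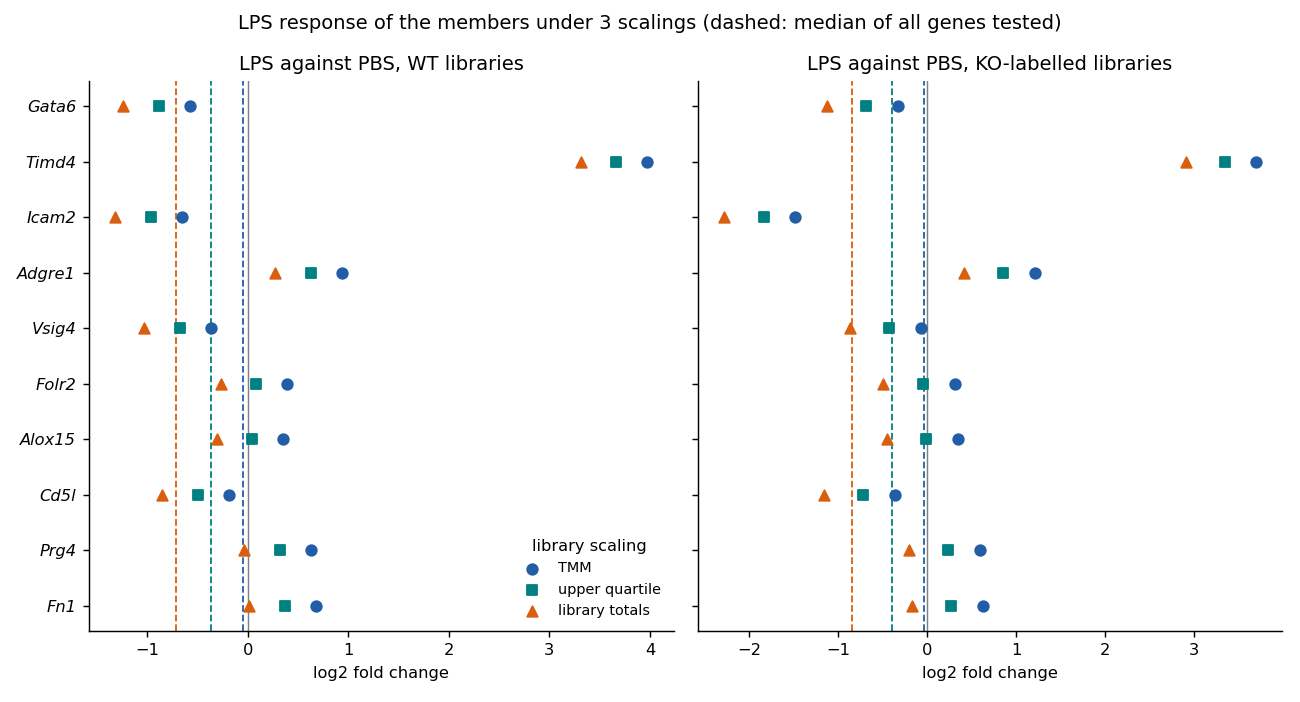
Log2 fold change of each member with LPS in WT (left) and KO-labelled (right) libraries under TMM, upper-quartile and library-total scaling, with the median of all tested genes under each scaling as a dashed line. Timd4 and Adgre1 lay right of zero and Gata6, Icam2 and Cd5l left of zero under the 3 scalings, while Folr2, Prg4 and Alox15 crossed zero in both panels.

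Timd4 and Adgre1 were higher with LPS under each of the 3 scalings. Timd4 rose 15.7-fold in WT (3.97, 3.44 to 4.50, adjusted p = 1.93e-10), with values of 3.31 to 3.97 over the scalings. In KO-labelled libraries it rose from 9 to 70 counts, a ratio of 13.6 (95% counting interval 6.78 to 31.0), and the fitted change was 2.92 to 3.70 over the scalings. Adgre1 rose 1.92-fold in WT (0.94, 0.83 to 1.05, adjusted p = 2.50e-11) and 2.32-fold in KO-labelled libraries (1.21, 1.10 to 1.32, adjusted p = 7.02e-13). With library totals the increases of Adgre1 were 0.28 and 0.41, still past the threshold.

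Icam2 and Cd5l were lower with LPS under each scaling. Icam2 fell 1.57-fold in WT (-0.65, -1.03 to -0.27, adjusted p = 0.00326) and 2.80-fold in KO-labelled libraries (-1.49, -1.87 to -1.10, adjusted p = 1.00e-06). Cd5l fell 1.14-fold in WT (-0.18, -0.31 to -0.06, adjusted p = 0.00974), a call that was lost without WT PBS replicate 1 (-0.15, adjusted p = 0.0617), and 1.29-fold in KO-labelled libraries (-0.36, -0.50 to -0.23, adjusted p = 4.97e-05). Gata6 fell in WT (-0.58, -1.0 to -0.15, adjusted p = 0.0159), although not without WT LPS replicate 1 (-0.49, adjusted p = 0.0592) or replicate 3 (-0.50, adjusted p = 0.0662). In KO-labelled libraries the value of Gata6 was -0.33 (-0.91 to 0.24, adjusted p = 0.269) with TMM and -0.69 and -1.13 with upper-quartile scaling and library totals, both of which passed. The same held for Vsig4 in WT, at -0.37 (-0.74 to 0.01, adjusted p = 0.0721) with TMM and -0.67 and -1.03, both called, with upper-quartile scaling and totals. Vsig4 in WT also passed without WT LPS replicate 2 (-0.53, adjusted p = 0.0271) or with a minimum of 10 counts in every library (-0.40, adjusted p = 0.0387). In KO-labelled libraries Vsig4 was at -0.07 (adjusted p = 0.763) with TMM and -0.43 with upper-quartile scaling, neither called, and was called at -0.87 with totals.

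Folr2, Prg4 and Fn1 were called higher with TMM and with RLE scaling but not with upper-quartile scaling or library totals, except Prg4 in WT with upper-quartile scaling. Folr2 was 1.32-fold higher in WT (0.40, 0.24 to 0.55, adjusted p = 0.000142) and 1.24-fold higher in KO-labelled libraries (0.31, 0.14 to 0.48, adjusted p = 0.00192). With library totals it was called lower in both (-0.27, adjusted p = 0.00510 and -0.49, adjusted p = 3.77e-05). Relative to the median of all genes under the same scaling it was above that median in each case. Prg4 changed by 0.63 in WT (0.40 to 0.86, adjusted p = 4.83e-05) and by 0.59 in KO-labelled libraries (0.35 to 0.84, adjusted p = 0.000165), against -0.03 and -0.21 with totals. Fn1 changed by 0.68 (0.21 to 1.16, adjusted p = 0.0132) and 0.63 (0.16 to 1.10, adjusted p = 0.0189), against 0.02 and -0.17 with totals. Without WT LPS replicate 1, the value of Fn1 in WT was 0.37, still past the threshold. The call of Fn1 in KO-labelled libraries was also lost without KO PBS replicate 1 (0.59, adjusted p = 0.0508) or KO LPS replicate 3 (0.50, adjusted p = 0.0761), and with no filter on low counts (0.59, adjusted p = 0.0542). Alox15 did not pass in WT (0.35, adjusted p = 0.228) or in KO-labelled libraries (0.34, adjusted p = 0.341).

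Whether the response to LPS differed by genotype label was tested as an interaction, which passed for 2 of 10 members where 18% of all genes passed. Adgre1 rose more in KO-labelled libraries, by 0.27 log2 units (0.12 to 0.42, adjusted p = 0.0151), as 1 member among the 9.78% of genes with a positive interaction. Icam2 fell more in them, by -0.83 (-1.39 to -0.28, adjusted p = 0.0373), where 8.26% of genes were negative. Both calls were fragile. That of Adgre1 was lost with library totals (0.13) and on leaving out replicate 1 of WT PBS (0.22), or replicate 1 (0.24) or 2 (0.24) of KO PBS. That of Icam2 was lost without WT PBS replicate 2 (-0.75) or 3 (-0.80), WT LPS replicate 2 (-0.64), any of KO PBS replicates 1 to 3 (-0.89, -0.84 and -0.86) or KO LPS replicate 3 (-0.68). For the other members the intervals were wide at low counts, as for Timd4 (-0.27, -1.92 to 1.38), and narrower for Folr2 (-0.09, -0.32 to 0.14), Cd5l (-0.18, -0.36 to 0.00) and Prg4 (-0.04, -0.37 to 0.30). That of Cd5l passed with library totals (-0.32, adjusted p = 0.0173).

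The rest of the programme was read from lists written from general knowledge, also with earlier results of these data known. For each list, the counts stand beside the shares of all tested genes, of which 13% were lower and 12.3% higher by the KO label under PBS, and 19.3% lower and 22.1% higher under LPS. Of 16 further genes of large peritoneal macrophages, 12 were tested, and 7 were lower and 2 higher by the KO label under PBS (median -0.74). Marco, a scavenger receptor for bacteria, averaged 9.98 ± 1.19 CPM in WT cells and 1.14 ± 0.324 CPM in KO-labelled cells with PBS (-3.13, SE 0.178, adjusted p = 7.54e-09). Gas6, the bridge between dying cells and the receptors Mertk and Axl, was lower under PBS (-0.67, adjusted p = 2.24e-06), as was Saa3, an acute-phase protein (-0.82, adjusted p = 0.00670), whereas coagulation factor F10 was higher (0.35, adjusted p = 0.000335). Under LPS the list was split, with 3 lower, 4 higher and 5 not called (median -0.44), shares near those of all genes. Marco (-1.70, adjusted p = 6.16e-08) and Gas6 (-1.40, adjusted p = 7.30e-09) remained lower by the KO label under LPS, while the matrix protein gene Thbs1 was higher (0.95, adjusted p = 4.71e-06). Serpinb2, a plasminogen activator inhibitor, was lower under PBS (-1.11, adjusted p = 0.000170) and higher under LPS (1.21, adjusted p = 8.55e-08), and Saa3 was likewise higher under LPS (0.57, adjusted p = 0.0130).

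Of 17 tested genes by which macrophages recognise apoptotic cells, 10 were lower and 2 higher by the KO label under PBS (13% and 12.3% of all genes), and 11 lower and 2 higher under LPS (19.3% and 22.1% of all genes). The medians were -0.35 and -0.70. Mfge8, a bridge to phosphatidylserine, averaged 795 ± 9.15 CPM in WT cells and 324 ± 9.58 CPM in KO-labelled cells with PBS (-1.29, adjusted p = 2.44e-10) and was lower under LPS (-1.42, adjusted p = 4.22e-11). C1qa, a chain of complement C1q, was lower under PBS (-1.03, adjusted p = 2.44e-08) and LPS (-1.30, adjusted p = 1.18e-09). Mertk, the receptor kinase for Gas6, stood with PBS at 95 ± 1.33 CPM in WT and at 97.9 ± 0.95 CPM in KO-labelled cells, but with LPS at 233 ± 12 and 98.3 ± 9.76 CPM (-1.24, adjusted p = 1.91e-09).

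The regulators known to bear on this programme did not follow the members under PBS. Of 13 tested, 4 were higher by the KO label and 9 did not pass, the former with the Krüppel-like factors Klf2 (0.54, adjusted p = 6.01e-05) and Klf4 (0.52, adjusted p = 0.000162). Under LPS, 4 were higher and 3 lower, such as Bhlhe40, a factor needed for large macrophages to divide (0.95, adjusted p = 9.22e-08), Cebpb (0.55, adjusted p = 9.48e-05), the growth factor receptor Csf1r (-0.53, adjusted p = 0.00115) and Rxra, the retinoid X receptor (-0.48, adjusted p = 0.00382). Several of these genes also changed with LPS. In WT libraries Bhlhe40 changed by -3.59 (adjusted p = 6.93e-17), Cebpb by 2.96 (adjusted p = 1.28e-14) and Maf by 2.13 (adjusted p = 3.86e-16). Klf2 changed there by -0.41 (adjusted p = 0.000163) and Klf4 by 0.44 (adjusted p = 0.000114). Rxra changed by -1.94 in WT (adjusted p = 1.27e-10) and by -2.48 in KO-labelled libraries (adjusted p = 6.70e-12). These are TMM values, and the direction of the smaller changes can depend on the scaling, as it did for some members.

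Of 16 tested genes of small and monocyte-derived macrophages, 9 were lower and 1 higher by the KO label under PBS (13% and 12.3% of all genes; median -0.50), and 8 were lower and 1 higher under LPS (19.3% and 22.1%; median -0.15). Itgax, the integrin CD11c, was lower under both treatments (-1.02, adjusted p = 5.49e-08 and -1.06, adjusted p = 2.01e-08), as was Cd74, the invariant chain of MHC class II, under PBS (-0.69, adjusted p = 6.82e-06). The gene that was higher under LPS was Ly6c2, a marker of inflammatory monocytes, at 29.3 ± 4.39 CPM in WT against 91.2 ± 12.4 CPM in KO-labelled cells (1.64, adjusted p = 6.92e-08). Of 12 alternative activation genes, 6 were lower and 2 higher under PBS, with Mrc1, the mannose receptor, lower (-1.20, adjusted p = 5.49e-08) and Chil3 higher (0.81, adjusted p = 1.97e-05), and 4 were lower and 5 higher under LPS. Of the 10 general macrophage genes, 1 was higher and 9 were not called under PBS (median 0.01), and 1 was higher and 3 were lower under LPS (median -0.06). Their summed level was 45064 to 45992 CPM in WT PBS against 46038 to 47033 CPM in KO PBS, and 43405 to 46097 CPM in WT LPS against 39580 to 42500 CPM in KO LPS, so that the labels did not overlap under either treatment and stood in opposite orders.

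**Figure D5:**
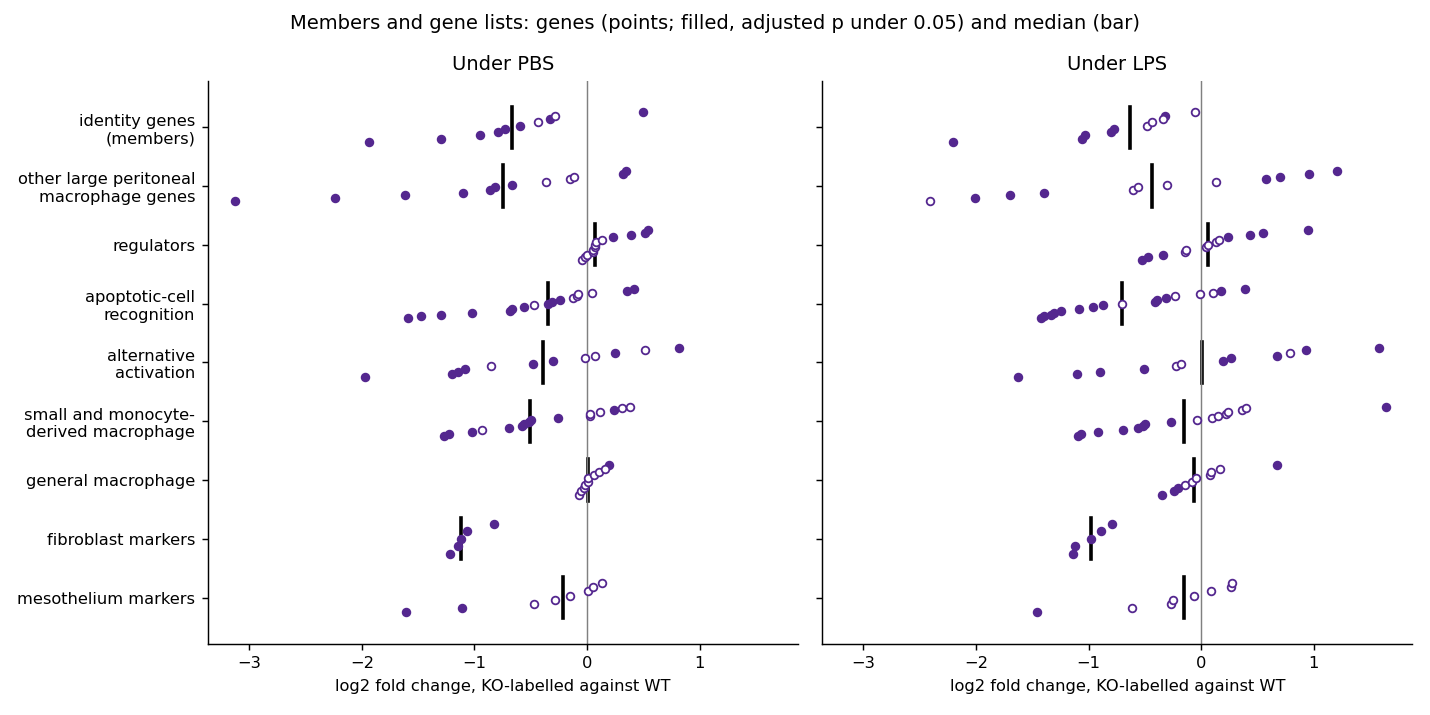
Log2 fold change by genotype label under PBS (left) and LPS (right) of the tested genes of each list (points, filled where the adjusted p was under 0.05), with the list median as a bar. The members had medians of -0.66 and -0.63, the fibroblast markers of -1.12 and -0.98, and the general macrophage genes of 0.01 and -0.06.

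Markers of other cells moved with the label too. All 5 of the fibroblast markers tested, of 8 listed, were lower in KO-labelled libraries under PBS and under LPS, for example Col1a2 (-1.22, adjusted p = 7.19e-07 and -1.12, adjusted p = 8.83e-07) and Pdgfra (-1.12, adjusted p = 8.55e-06 and -1.14, adjusted p = 8.63e-06). The 8 summed to 75.4 to 88.9 CPM in WT PBS libraries against 33.0 to 46.5 CPM in KO PBS libraries, and to 119 to 132 CPM in WT LPS against 57.0 to 69.5 CPM in KO LPS, without overlap. Of the defining genes, Lum and Dpt were too low to be tested, with group means of at most 0.0948 and 0.0601 CPM, and were at 0 in KO LPS. Fn1 and Prg4 are also made by such stromal cells, and the part of fibroblast RNA in the members' values was not tested. Mesothelial markers summed to 6.91 to 15.1 CPM over all libraries, with 2 of 8 lower under PBS and 1 of 8 lower under LPS. Wt1 averaged 3.05 ± 0.564 CPM in WT PBS against 0.996 ± 0.408 CPM in KO PBS (-1.61, adjusted p = 0.000141). Under LPS it was also lower by the KO label (-1.46, adjusted p = 0.000718). The part of mesothelial RNA in the members' values, that of Gata6 included, was not tested. Skeletal muscle markers summed to 17.9 to 35 CPM in WT libraries, to 0.425 to 20.3 CPM in KO PBS and to 0.428 to 0.736 CPM in KO LPS, and their part in the result was not tested. Markers of B cells, T cells, eosinophils and mast cells summed to at most 14.2 CPM in any library, with Cd3e at 0 in both PBS groups and at group means of at most 0.0207 CPM with LPS. T-cell markers summed to 10.6 to 14.2 CPM in WT LPS against 5.09 to 5.88 CPM in KO LPS, with Lck lower (-1.37, adjusted p = 1.00e-05). Mast-cell markers stood in the opposite order, at 1.02 to 1.42 CPM in WT LPS against 2.82 to 3.56 CPM in KO LPS. Neutrophil markers, led by Csf3r, which macrophages share, summed to 102 to 107 CPM in WT PBS against 168 to 173 CPM in KO PBS, and to 502 to 544 CPM in WT LPS against 648 to 690 CPM in KO LPS. Retnlg was at 0 in both PBS groups and in WT LPS and averaged 0.0204 CPM in KO LPS, and the part of neutrophils was not tested either.

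The genes whose pattern over the 12 libraries was most like that of a member were found by Pearson's correlation of log2 CPM, as a description, since the points share groups and libraries. For Timd4 they were Suv39h1 (r = 0.989), Aldh1a2 (r = 0.988) and Evl (r = 0.982), among 90 genes above 0.95. Adgre1 had 1660 genes above 0.95, of which Slc30a4, Shisa5 and Tagln2 were closest (each r = 0.997). Folr2 was closest to Plp2 (r = 0.988), Ctsk (r = 0.987) and Cald1 (r = 0.981), among 29 genes. Cd5l was closest to Psat1 (r = 0.981), Ckb (r = 0.979) and Gatm (r = 0.977), among 24. Prg4 was closest to Antxr1 (r = 0.971), Actr1a (r = 0.970) and Dcakd (r = 0.967), and Fn1 to Mtor (r = 0.986), Sf3a1 (r = 0.984) and Tln1 (r = 0.982). None of the 10 members was among the 3 closest genes of these 6 members, and closest genes were not sought for the other 4, whose mean lay under 5 CPM in each group.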

How the data were processed

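Single-end reads came from a BGISEQ-500 sequencer. The submitters' processing notes name Bowtie2, RSEM 1.3.1 and build GRCm38.p6, whereas the study's methods name STAR and HTSeq. The authors deposited expected counts (estimated counts per gene), not scaled between libraries, of which 24.6% to 26.9% per library were not whole. RSEM shares reads between similar genes, so values of Prg4 and Alox15 may hold reads of other genes. Positions come from matching gene numbers to RefSeq on GRCm38.p6 (16803 of 16920 found).

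The counts were rounded. Genes were filtered with filterByExpr over the 4 groups, which left 12064, and 1 quasi-likelihood model (edgeR 4.0.16, limma 3.58.1, R 4.3.3; robust, TMM) was fitted to the 12 libraries. Two-sided p-values were adjusted after Benjamini and Hochberg across the 12064 genes, and 0.05 was the threshold. Intervals are 95%. The typical biological coefficient of variation was 6.99%, and the pipeline was tested on simulated data. The members and lists were chosen with earlier results of these data known. Beside the members, the text names up to 4 genes per list and contrast, those with the largest change past the threshold and at least 5 CPM in the higher group, and for members of at least 5 CPM the 3 most like genes. A gene that this rule also names is not reported here. Alternatives were RLE and upper-quartile scaling, library totals alone, DESeq2 1.42.0, no filter, a minimum of 10 counts in every library, a fit to the libraries compared alone, a block for the replicate number, and leaving out each library in turn.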

Additional observations from a re-analysis of the deposited data

Results flagged for a closer look

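The response to LPS differed by genotype label, by the interaction test in edgeR, for 2 members and for further genes of the lists, of which 6 are given in full. Others also passed, such as Saa3 (1.39, adjusted p = 0.00233) and Csf1r (-0.58, adjusted p = 0.0159). Icam2 had an interaction of -0.83 (adjusted p = 0.0373), its LPS libraries lying below every PBS library in WT and in KO-labelled cells alike, and Adgre1 one of 0.27 (adjusted p = 0.0151). Marco had an interaction of 1.43 (adjusted p = 0.000566), rising from 1.14 to 9.98 CPM in KO-labelled and from 9.98 to 32.4 CPM in WT libraries. That of Gas6 was -0.73 (adjusted p = 0.000249) and that of Serpinb2 2.31 (adjusted p = 1.01e-06). Mertk had -1.29 (adjusted p = 3.17e-07), its KO-labelled mean being 97.9 CPM with PBS and 98.3 CPM with LPS. Ly6c2 had 1.33 (adjusted p = 0.000153) and Bhlhe40 0.71 (adjusted p = 0.000119).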

How the results depend on the processing

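Over the alternatives run, 5 of the 8 members called under PBS and 4 of the 6 called under LPS kept their call and direction, against 3 of 8 for LPS in WT, 4 of 7 for LPS in KO-labelled libraries and 0 of 2 for the interaction. The members called higher with LPS in WT numbered 3 with upper-quartile scaling (26.1% of all genes) and 2 with library totals (18.4%), and those lower 5 with totals (68.4%). In KO-labelled libraries 2 were higher with upper-quartile scaling (27.7%), 2 higher with totals (18.3%) and 5 lower with totals (69.5%). For the interaction, totals gave 0 higher (5.2%) and 2 lower (16.1%). Leaving out 1 library gave 0 to 1 members higher by the KO label under PBS (8.68% to 15.5% of all genes), 0 to 1 with a positive (6.04% to 12.7%) and 0 to 1 with a negative interaction (5.51% to 9.26%). The fibroblast gene Col1a2 turned with totals for LPS in KO-labelled libraries (-0.036). With totals the LPS change was -0.27 for Folr2, -0.31 for Alox15 and -0.032 for Prg4 in WT, and -0.49 for Folr2, -0.45 for Alox15, -0.21 for Prg4 and -0.17 for Fn1 in KO-labelled libraries, where upper-quartile scaling gave -0.047 for Folr2 and -0.011 for Alox15. The TMM factors of LPS and PBS libraries differ, which by construction sets these signs. Leaving out single libraries turned values that were not called. These were LPS in KO-labelled libraries for Vsig4 (-0.20 to 0.033), the interaction for Timd4 (-0.70 to 0.25), Alox15 (-0.31 to 0.18), Prg4 (-0.13 to 0.066) and Fn1 (-0.23 to 0.26), and the genotype label under LPS for Ythdf1 (-0.055 to 0.012). The cause was not tested. With only the libraries compared, Timd4 under PBS did not pass the filter on low counts and has no value. Same-numbered deviations correlated between -0.0758 and 0.127 and were highest for the own number in 8 of 18 cases. The libraries were treated as unpaired, and whether same-numbered libraries share animals or batches cannot be told from these values. With the replicate block, the only member whose call changed was Prg4 under PBS (-0.29, adjusted p = 0.0425). Depth limits Timd4, Alox15, Gata6, Vsig4 and Icam2, with 9 to 403 counts per group.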
